A study of Mus musculus with 10 samples.

Results

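The RGS genes (regulators of G protein signalling) were described across CD4-positive spleen cells of B10 and NOD mice, before and after stimulation. The members are the 8 listed symbols Rgs1, Rgs2, Rgs3, Rgs10, Rgs14, Rgs16, Rgs18 and Rgs19, and 7 of these 8 were measured among 19938 genes. No probe set that names Rgs10 alone was used here, so it was not analysed. Female mice of 8 weeks supplied the cells, and the labels name the genotypes B10Br and NODk. The cells were taken with magnetic CD4 beads, so cells of other types can remain, and each RNA went to 1 Affymetrix array. Each strain had 3 arrays of unstimulated cells (T0) and 2 arrays of cells stimulated for 4 hours with PMA, at 10 ng/ml, and 1 uM ionomycin (T1), which together switch on T cells without the antigen receptor. The labels call T0 the basal state, while the protocol can also be read as unstimulated culture over the same time. Samples are labelled as biological replicates without naming animals, so p-values measure the spread between these samples only. All arrays of T0 and T1 came from whole bead-sorted cells, and in such bulk samples fewer cells of a type and less RNA per cell cannot be told apart.

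G protein coupled receptors, among them the chemokine receptors of T cells, switch on a G protein by loading its alpha subunit with GTP. RGS proteins speed up the hydrolysis of that GTP and so shorten the signal. Rgs1, Rgs2, Rgs3, Rgs16 and Rgs18, and with them Rgs13, belong to the R4 subfamily, small proteins that are little more than the RGS domain. Rgs19 belongs to the RZ subfamily, and Rgs10 and Rgs14 to the R12 subfamily. In lymphocytes the R4 members are known mainly for limiting migration towards chemokines.

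Values are RMA log2 intensities, in which 1 unit is a 2-fold difference. Array medians lay between 6.18 and 6.23, and arrays of the same group correlated at r = 0.985 to 0.993, those of different groups at 0.943 to 0.984. Cd4, the marker used for the sort, was at 10.89 to 11.21 on the T0 arrays and at 9.06 to 9.75 on the T1 arrays. Markers of other cell types were also measured, and they moved with the groups. The summed level of 9 of 10 monocyte and macrophage markers was 11.73 to 11.97 at B10 T0, 12.24 to 12.55 at NOD T0, 10.54 to 10.70 at B10 T1 and 10.51 to 10.92 at NOD T1. That of 8 of 9 B cell markers was 11.59 to 11.85, 11.83 to 12.14, 10.92 to 10.98 and 10.67 to 10.78 in the same order. Summed erythroid markers (6 of 8) were at 10.46 to 12.15, 12.97 to 13.58, 12.17 to 12.74 and 13.40 to 13.76, higher in NOD. The part of other cells in the results was not tested.

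Rgs1 and Rgs16 rose after stimulation in both strains, Rgs14 and Rgs18 fell in both, and Rgs2, Rgs3 and Rgs19 did not pass the test in either. In B10, 2 of 7 measured members rose and 2 fell at an adjusted p under 0.05 (limma), while 13.7% of all genes rose and 18.1% fell. In NOD, again 2 rose and 2 fell, against 16.1% and 19.5% of all genes. The members' median log2 change was 0.12 (B10) and -0.12 (NOD), beside 0.031 and 0.081 over all genes. The stimulation and strain contrasts share arrays and are not independent of each other.

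**Figure D1:**
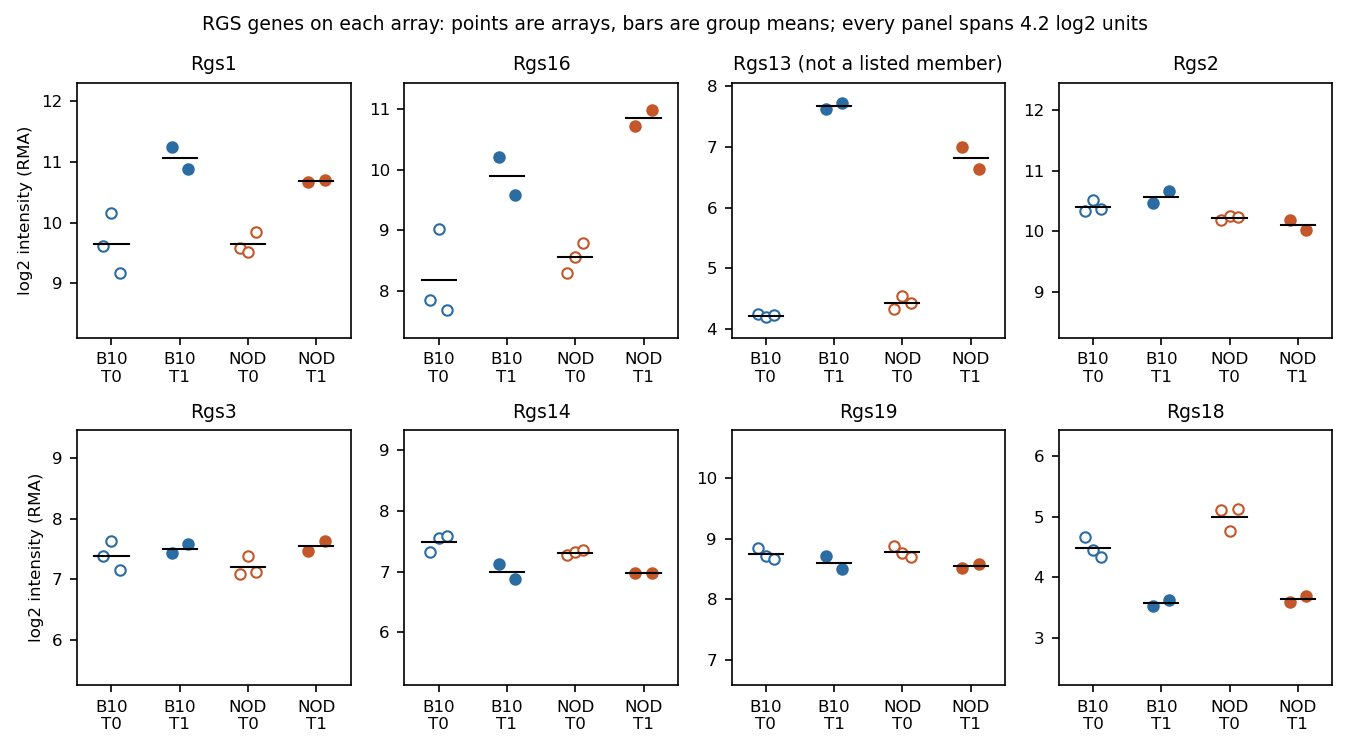
Log2 intensity (vertical axis) of the 7 measured members and of Rgs13 on each array, by strain and state (horizontal axis). Points are single arrays, open at T0 and filled at T1, and bars are group means. Each panel spans 4.2 log2 units, so the panels can be compared for size of change but not for level. Rgs1, Rgs16 and Rgs13 are higher at T1 in both strains, and Rgs18 is lower.

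Rgs16, an R4 member that acts on Gi and Gq alpha subunits, showed the largest rise among the members in each strain. Its log2 intensity was 7.86, 9.03 and 7.68 on the B10 T0 arrays and 10.21 and 9.58 on the B10 T1 arrays. In NOD it was 8.30, 8.56 and 8.80 at T0 and 10.72 and 10.98 at T1. No T0 array reached any T1 array, and both NOD T1 arrays lay above both B10 T1 arrays. The rise was 3.26-fold in B10 (log2 difference 1.71 ± 0.32 standard error, adjusted p = 0.000955, limma). In NOD the rise came to 4.93-fold (2.30 ± 0.32, adjusted p = 8.51e-05). Among 19938 genes, the rise of Rgs16 ranked 258 from the top in B10 and 74 in NOD.

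Whether the strain differences of Rgs16 passed depended on 1 array. At T0 the level in NOD exceeded that in B10 by 0.36 ± 0.29 (adjusted p = 0.662), and at T1 by 0.96 ± 0.35 (95% interval 0.19 to 1.72, adjusted p = 0.180). B10 T0 replicate 2, at 9.03, stood more than 1 unit above the other B10 T0 arrays. Without it both strain differences passed, at 0.78 for T0 (adjusted p = 0.0453) and 0.96 for T1 (adjusted p = 0.0282). The T1 difference does not include that T0 array and kept its size, so only the shared estimate of spread changed there. The rise in B10 was then 2.12. The response itself was not shown to differ between strains, with an interaction (NOD response minus B10 response) of 0.59 ± 0.45 (adjusted p = 0.724), or 0.18 without that array. B10 T1 replicate 2 was also the higher B10 T1 array, and the omission removed only the T0 array of that number. Between same-numbered arrays the rises were 1.18 and 1.91 in B10, and 2.17 and 2.18 in NOD. If same-numbered arrays are pairs, the values 2.12 and 0.18 break a pair and need not be better estimates.

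Rgs1, which dampens chemokine receptor signals in B and T cells, rose less than Rgs16 on the log2 scale. It was at 9.62, 10.15 and 9.16 on the B10 T0 arrays and at 11.24 and 10.89 on the B10 T1 arrays. In NOD it was at 9.58, 9.52 and 9.85 at T0 and at 10.67 and 10.70 at T1. The T0 arrays of both strains covered one range, all T1 arrays lay above them, and the NOD T1 arrays lay just under the B10 T1 arrays. Stimulation raised it 2.67-fold in B10 (1.42 ± 0.22, adjusted p = 0.000226). In NOD it was raised 2.05-fold (1.03 ± 0.22, adjusted p = 0.00259). NOD minus B10 did not pass at T0 (0.00 ± 0.20, 95% interval -0.43 to 0.44, adjusted p = 0.998) or at T1 (-0.38 ± 0.24, 95% interval -0.91 to 0.15, adjusted p = 0.494). B10 T0 replicate 2 was the highest T0 array for Rgs1, as it was for Rgs16, and without it the rise of Rgs1 in B10 was 1.67. Between same-numbered B10 arrays the rise was 1.08 for replicate 2 and 1.73 for replicate 3. Over 670 genes that rose by at least 1 in NOD, the median deviation of B10 T0 replicate 2 from the B10 T0 mean was 0.03. A median over so many genes cannot show whether a part of them was high. Summed erythroid markers were at 10.97, 10.46 and 12.15 on B10 T0 replicates 1, 2 and 3. Causes of the high values on replicate 2 were not tested.

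The third R4 gene that rose, Rgs13, is not among the listed members and is known best from germinal centre B cells and mast cells. Every other measured gene named Rgs with a number was read beside the members, and Rgs13 changed more than any member. Its log2 intensity was 4.24, 4.19 and 4.23 on the B10 T0 arrays and 7.63 and 7.72 on the B10 T1 arrays. In NOD it was 4.33, 4.54 and 4.42 at T0 and 7.0 and 6.64 at T1. The T0 arrays were close together and near background: of 1027 olfactory receptor genes, taken as a guide to background, 36.9% had a higher mean at B10 T0 and 29.6% at NOD T0. At T1 these shares were 0.195% and 0.584%. B10 cells showed an 11-fold rise (3.46 ± 0.12, adjusted p = 1.02e-09). NOD cells showed a 5.24-fold rise (2.39 ± 0.12, adjusted p = 1.4e-08), and the ranks from the top were 23 and 63. With T0 near background, both folds may be understated. Summed B cell markers fell over the same contrast, as given above, but not every marker did. Of 8 measured, 1 rose and 4 fell in B10, against 13.7% and 18.1% of all genes. In NOD 0 rose and 6 fell, against 16.1% and 19.5%. The mean of the marker Cr2 was 7.45 at B10 T0 and 8.82 at B10 T1, and 8.45 and 8.38 in NOD.

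Rgs13 was also the RGS gene with a strain difference in its response. At T1 it was lower in NOD than in B10 by 0.86 on the log2 scale (-0.86 ± 0.13, adjusted p = 0.00383), a call that ended in a fit of only the T1 arrays (adjusted p = 0.0655). The interaction was -1.07 ± 0.17 (adjusted p = 0.0211). It includes the T0 difference of 0.21, which lies near background and did not pass (adjusted p = 0.368), so its size is uncertain. The B cell markers differed in the same direction at T1, as given above, and 2 of 8 had a negative interaction that passed; their part was not tested. In all, 0.0953% of genes had a positive interaction that passed and 0.15% a negative one. The value of Rgs13 kept its sign in each alternative, between -1.25 and -0.88, but the call ended without any 1 of 8 arrays: each B10 array (T0 replicates 1, 2 and 3, T1 replicates 2 and 3), NOD T0 replicates 2 and 3, and NOD T1 replicate 3. The adjusted p over these omissions was between 0.0539 and 0.0754. It was 0.052 with each array shifted to one 75th percentile and 0.078 with every probe set tested, and both ended the call. None of the 7 measured members passed in the interaction (0 of 7 with limma), and 1, Rgs18, had an unadjusted p under 0.05.

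Rgs2, which acts chiefly on Gq alpha subunits, stayed within a narrow range. It was at 10.34, 10.51 and 10.37 on the B10 T0 arrays and 10.47 and 10.67 on the B10 T1 arrays. The NOD arrays were at 10.18, 10.26 and 10.23 at T0 and 10.19 and 10.02 at T1. Every NOD array lay below every B10 array, while T0 and T1 overlapped within each strain. Stimulation gave 0.16 ± 0.10 in B10 (95% interval -0.06 to 0.39, adjusted p = 0.294) and -0.12 ± 0.10 in NOD (-0.35 to 0.11, adjusted p = 0.397). NOD minus B10 was -0.18 ± 0.09 at T0 (adjusted p = 0.390) and -0.47 ± 0.11 at T1 (adjusted p = 0.0428). The T1 difference thus passed narrowly, and it no longer passed without any 1 of 9 arrays, all but NOD T1 replicate 2 (values -0.56 to -0.37, adjusted p 0.0537 to 0.213). It ended also with the 75th percentile scaling (-0.42, adjusted p = 0.0871).

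Rgs3, an R4 member with several long isoforms, and Rgs19, a Gi-directed RZ member first known as GAIP, did not pass in any contrast. Rgs3 had 7.15 to 7.63 on the B10 T0 arrays, 7.43 and 7.58 on the B10 T1 arrays, 7.08 to 7.38 at NOD T0 and 7.46 and 7.63 at NOD T1. Its stimulation values were 0.12 ± 0.14 in B10 and 0.35 ± 0.14 in NOD (adjusted p = 0.0711), the latter without overlap between T0 and T1. In NOD it rose without NOD T0 replicate 2 (0.45, adjusted p = 0.0359) or B10 T0 replicate 3 (0.35, adjusted p = 0.0476), and with the 75th percentile scaling (0.48, adjusted p = 0.0361). A dimmer probe set for Rgs3 ranged from 6.11 to 6.42, and the mean of both gave 0.27 in NOD (adjusted p = 0.0615) and 0.02 in B10. Rgs19 ranged from 8.66 to 8.85 at B10 T0, from 8.49 to 8.71 at B10 T1, from 8.69 to 8.88 at NOD T0 and from 8.51 to 8.58 at NOD T1. Its stimulation values were -0.14 ± 0.11 in B10 (95% interval -0.38 to 0.09) and -0.23 ± 0.11 in NOD (-0.46 to 0.01).

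Rgs14, an R12 member that carries a further Gi-binding motif and Ras-binding domains, fell by a small amount. It was at 7.32, 7.55 and 7.59 on the B10 T0 arrays and 7.12 and 6.87 on the B10 T1 arrays, and at 7.27, 7.32 and 7.35 and then 6.98 and 6.98 in NOD. All T1 arrays lay below all T0 arrays, and strains overlapped in both states. The change was -0.49 ± 0.11 in B10 (adjusted p = 0.00377) and -0.33 ± 0.11 in NOD (adjusted p = 0.0350). In B10 the call ended without B10 T1 replicate 3 (-0.37, adjusted p = 0.067). In NOD it ended without any 1 of the 5 NOD arrays (-0.35 to -0.32), with every probe set tested (adjusted p = 0.0569) and with array weights (adjusted p = 0.0504). It ended also with the 75th percentile scaling, where the value was -0.21 (adjusted p = 0.156) and the median of all genes moved from 0.081 to 0.207.

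Rgs18, an R4 member known from platelets and myeloid cells, showed the largest fall among the members. It was at 4.67, 4.45 and 4.34 on the B10 T0 arrays and 3.53 and 3.62 on the B10 T1 arrays. In NOD it was at 5.11, 4.77 and 5.12 at T0 and 3.60 and 3.69 at T1. The NOD T0 arrays were the highest, the B10 T0 arrays came next, and the T1 arrays of both strains formed one low group. The change was -0.91 ± 0.13 in B10 (1.88-fold lower, adjusted p = 0.000111) and -1.36 ± 0.13 in NOD (2.56-fold lower, adjusted p = 3.65e-06). At T0 NOD exceeded B10 by 0.51 ± 0.12 (adjusted p = 0.0217), the only member that passed there (1 of 7 higher and 0 lower, against 3.44% and 2.35% of all genes). That call ended without B10 T0 replicate 2 or 3 or NOD T0 replicate 1 or 3 (values 0.44 to 0.49, adjusted p 0.0855 to 0.115), and with every probe set tested (adjusted p = 0.0621). At T1 the strains differed by 0.07 ± 0.14 (adjusted p = 0.869), where 0 of 7 members were higher and 1, Rgs2, was lower, against 1.77% and 1.83% of all genes.

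The level of Rgs18 was close to background, and its falls may be understated for that reason. Of the olfactory receptor genes, 28.4% had a higher mean at B10 T0, 14.4% at NOD T0, 67.5% at B10 T1 and 67.8% at NOD T1. The order of its 4 groups was also that of the summed monocyte and macrophage markers at T0, where NOD was above B10, and both fell at T1. Neutrophil markers (8 of 8 measured) had summed levels of 9.34 to 9.93 at B10 T0, 10.16 to 10.55 at NOD T0, 8.50 to 8.52 at B10 T1 and 8.59 to 8.87 at NOD T1. Platelet and megakaryocyte markers (8 of 10 measured) were at 9.65 to 9.86, 9.63 to 9.70, 9.20 to 9.32 and 9.09 to 9.23, a sum without a higher level at NOD T0. Its brightest gene was Itgb3, with means of 8.59 at B10 T0 and 8.49 at NOD T0. Single markers went both ways at T0: Ppbp was at 5.68 in B10 and 5.96 in NOD, and Clec1b at 5.33 and 4.80. At an unadjusted p under 0.05 (limma), 1 of the 8 was higher and 1 lower in NOD. The part of these cells in the Rgs18 values was not tested.

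For members whose group means spanned at least 1 unit, the genes with the most alike pattern over the 10 arrays were named by the smallest root mean square difference of mean-centred log2 values. For Rgs18, whose group means spanned 1.43, these were Spi1 (0.09), which encodes the myeloid and B cell transcription factor PU.1, Aif1 (0.15), a macrophage gene, and Tgfbi (0.15), a secreted matrix protein made by macrophages among other cells. Spi1 had means of 7.16 at B10 T0, 6.29 at B10 T1, 7.63 at NOD T0 and 6.34 at NOD T1. For Rgs1, with a span of 1.42, they were Tank (0.13), an adaptor of TRAF signalling, Chst2 (0.15), a sulfotransferase, and Ptger2 (0.16), a prostaglandin E2 receptor. The high value of B10 T0 replicate 2 and the low value of replicate 3 recurred in these genes: Ptger2 was at 6.58, 6.97 and 6.17 on the B10 T0 arrays, and Tank at 9.33, 9.56 and 8.93. For Rgs16, with a span of 2.66, the nearest genes were less alike: Malt1 (0.38), a protease of antigen receptor signalling, Shmt2 (0.41), a mitochondrial enzyme of one-carbon metabolism, and Cdk5r1 (0.41), an activator of Cdk5. The genes were picked for their likeness, so the match is a description.

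**Figure D2:**
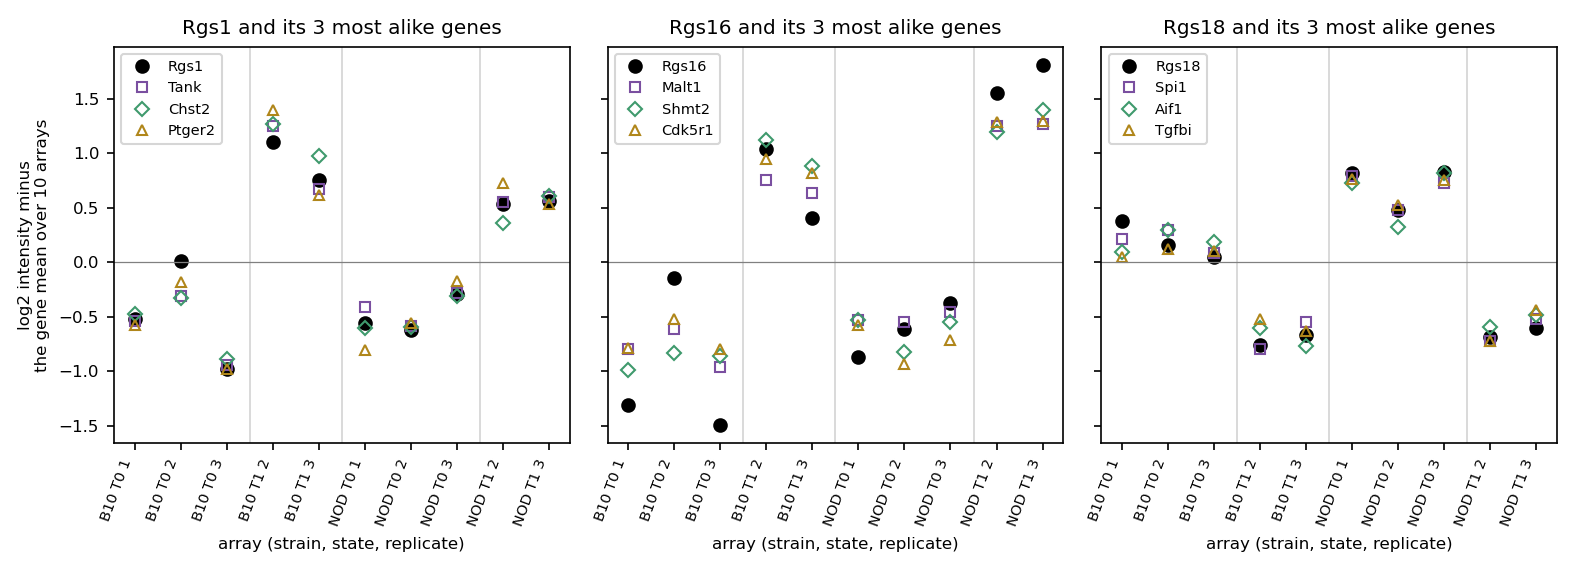
Log2 intensity minus each gene's mean over 10 arrays (vertical axis) on each array (horizontal axis), for Rgs1, Rgs16 and Rgs18 (filled black circles) and their 3 most alike genes (open symbols). Grey lines separate the 4 groups. Spi1 follows Rgs18 within a root mean square difference of 0.09, whereas Rgs16 spans more than its nearest genes and has a high value on B10 T0 replicate 2.

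The other 12 RGS genes beside Rgs13 moved little. Of the 13 non-members measured, Rgs13 was the 1 that rose in B10, with 0 lower, against 13.7% and 18.1% of all genes. At an unadjusted p under 0.05, 2 were higher and 0 lower there. In NOD, 2 rose and 0 fell (3 and 0 unadjusted), against 16.1% and 19.5% of all genes. The second of these was Rgs20, a member of the RZ subfamily, at 4.56 to 4.65 at T0 and 4.86 and 5.15 at T1 (0.40 ± 0.14, adjusted p = 0.0453). Its call ended without B10 T0 replicate 3, any NOD T0 array or NOD T1 replicate 3 (values 0.25 to 0.43), with every probe set (adjusted p = 0.0848) and with array weights (adjusted p = 0.0934). Rgs20 was near background, with 24.6% of the olfactory receptor genes higher at NOD T0 and 17.7% at NOD T1. No RGS gene among the 20 measured other than Rgs13, Rgs2 and Rgs18 passed in a strain contrast with all arrays.

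**Figure D3:**
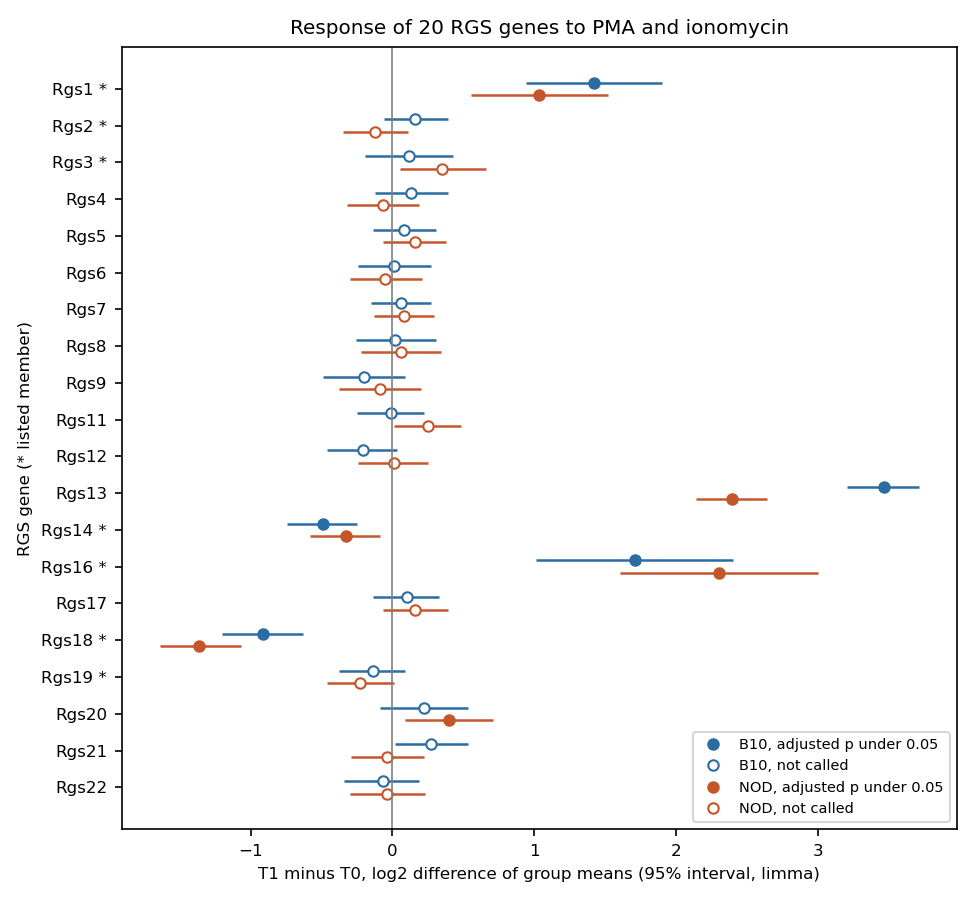
Change on stimulation (T1 minus T0, log2 difference, horizontal axis) of the 20 measured RGS genes (vertical axis, with listed members starred) in B10 (blue) and NOD (orange). Bars are 95% intervals from limma, and filled points have an adjusted p under 0.05. Rgs13, Rgs16 and Rgs1 lie to the right, Rgs18 and Rgs14 to the left, and most others span 0.

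Several RGS genes lie next to each other in RefSeq's gene order on mouse chromosome 1, and these neighbours differed in direction. From Rgs2 to Rgs18 the measured genes in that order were 5 RGS genes: Rgs2, Rgs13, Rgs1, Rgs21 and Rgs18. Within this run, Rgs13 and Rgs1 rose, Rgs18 fell, and Rgs2 and Rgs21 did not pass (Rgs21 0.27 in B10 and -0.04 in NOD). The measured genes around the run, looked up after the values were seen, were mixed too. Those directly beside it moved little. Uchl5, before Rgs2, had means of 9.07 and 9.12 at B10 T0 and T1, and 8.97 and 8.88 in NOD. Brinp3, after Rgs18 and near background, had 4.54 and 4.73, and 4.60 and 4.69 in NOD. Ptgs2, the inducible cyclooxygenase beyond Rgs18, rose by 2.5 in B10 and 1.91 in NOD, and Pla2g4a, a phospholipase that supplies it with arachidonic acid, fell (-0.55 and -1.43), a call that ended in B10 with the 75th percentile scaling. Ro60, an RNA-binding protein gene before Rgs2, fell (-1.09 and -1.02). Rgs16 sits next to Rgs8, which had 0.02 in B10 and 0.06 in NOD.

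**Figure D4:**
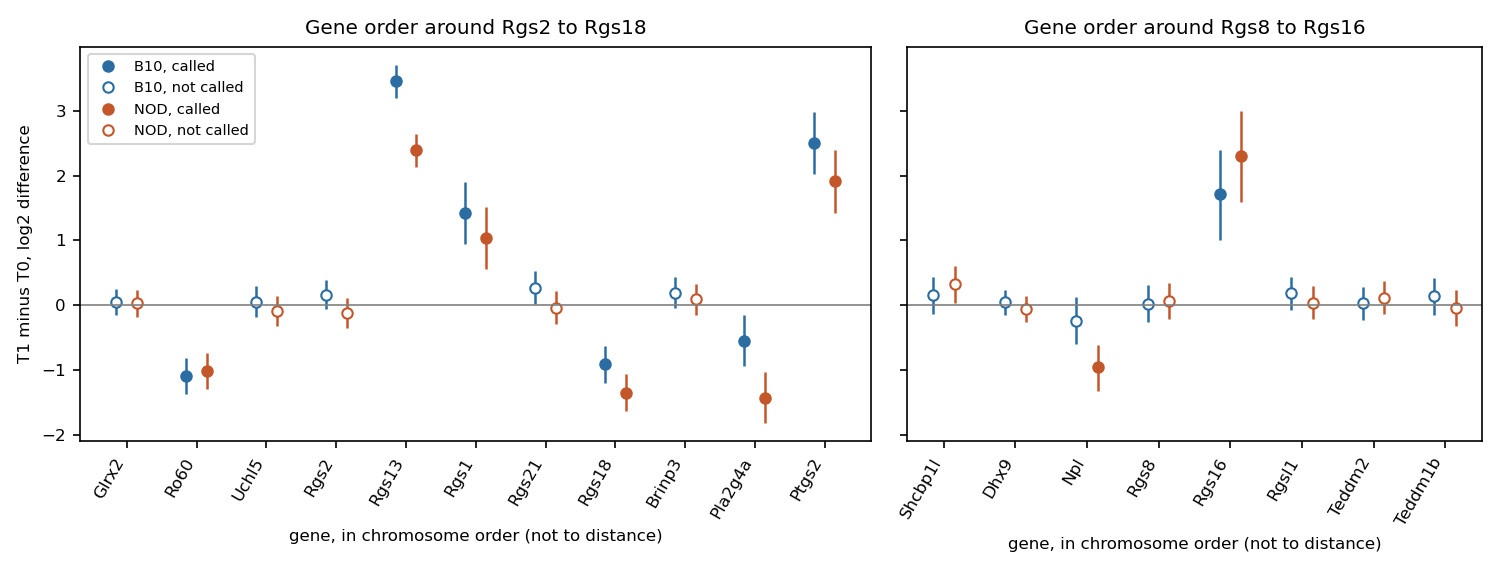
Change on stimulation (T1 minus T0, log2 difference, vertical axis) of genes in RefSeq order (horizontal axis, not to distance) around the run from Rgs2 to Rgs18 and around Rgs8 and Rgs16, with 3 measured genes on each side. Blue is B10 and orange NOD, bars are 95% intervals, and filled points have an adjusted p under 0.05. Neighbouring RGS genes differ in direction, from 3.46 for Rgs13 in B10 to -1.36 for Rgs18 in NOD.

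Promoter sequence was at hand for 4 of the 7 measured members and for Rgs13. The 250 bases before the start site are shown for Rgs16 and Rgs13, which rose, and for Rgs2, the neighbour of Rgs13 that did not pass, because they differ in base composition. They come from RefSeq on GRCm38.p6 and read 5′ to 3′ on the gene's strand, at chr1:153740103-153740352 (plus strand) for Rgs16, chr1:144177373-144177622 (minus strand) for Rgs13 and chr1:144004150-144004399 (minus strand) for Rgs2. Capitals mark each CG dinucleotide.
Rgs16: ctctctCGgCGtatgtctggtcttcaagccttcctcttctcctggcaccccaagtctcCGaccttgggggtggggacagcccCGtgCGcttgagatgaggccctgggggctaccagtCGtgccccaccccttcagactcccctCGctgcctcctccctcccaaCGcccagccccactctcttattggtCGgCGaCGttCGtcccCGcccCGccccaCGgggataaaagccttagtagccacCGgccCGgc
Rgs13: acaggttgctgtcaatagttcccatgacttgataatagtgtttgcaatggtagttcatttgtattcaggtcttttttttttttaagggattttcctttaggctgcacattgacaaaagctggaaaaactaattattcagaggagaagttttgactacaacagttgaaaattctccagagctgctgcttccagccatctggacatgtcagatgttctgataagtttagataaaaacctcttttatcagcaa
Rgs2: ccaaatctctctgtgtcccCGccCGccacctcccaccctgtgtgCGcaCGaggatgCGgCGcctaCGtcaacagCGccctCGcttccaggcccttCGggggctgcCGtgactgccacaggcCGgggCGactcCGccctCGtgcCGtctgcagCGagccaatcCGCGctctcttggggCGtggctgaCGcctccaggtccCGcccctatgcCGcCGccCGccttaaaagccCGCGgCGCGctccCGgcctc
Rgs16 has 17 CG dinucleotides and 66.4% G and C, Rgs2 has 30 and 72.4%, and Rgs13 has 0 and 36%. Over 32851 promoters of this length the medians were 6 and 52.4%, and 7.87% of promoters have no CG. Thus the genes that rose include a CG-rich promoter and a promoter without CG. A search on both strands for the AP-1 motif TGANTCA (in 6.75% of promoters), the NFAT core GGAAA (55.6%), the cAMP response element TGACGTCA (1.55%) and the TATA box TATAAA (12.4%) found only the NFAT core in these 3 windows, at 2 places in Rgs13. These motifs do not overlap one another there.

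The rest of the G protein pathway was read from lists of its parts, and in each list more genes fell than rose, as they did over all genes (13.7% rose and 18.1% fell in B10, 16.1% and 19.5% in NOD). With the 75th percentile scaling, more genes rose than fell over all genes in NOD (5393 and 3145), and the beta and gamma subunits then had 3 higher and 3 lower there. The other lists kept more lower than higher calls in both strains under that scaling. Among 12 measured alpha subunits, 1 rose and 6 fell in B10, and 1 rose and 5 fell in NOD. Gnai2, the main Gi alpha subunit of lymphocytes and a substrate of RGS proteins, fell by 1.54 in B10 and by 1.60 in NOD. Among 6 receptor kinases and arrestins, which end receptor signals upstream of the G protein, 0 rose and 5 fell in B10 and 0 and 4 in NOD (0 rose at an unadjusted p under 0.05 too). Grk6 (-1.08 and -1.13) and Arrb2 (-1.05 and -1.0) were among them. Of 14 beta and gamma subunits, 1 rose and 5 fell in B10, and 1 and 3 in NOD.

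Downstream effectors fell or did not pass. Among 16 adenylyl cyclases, phosphodiesterases and phospholipase C beta genes, 0 rose and 9 fell in B10, and 0 and 8 in NOD. They included Adcy7 (-1.08 and -1.17), which makes cAMP, and Pde3b (-1.28 and -1.72), which degrades it. Of 23 receptors of T cells, 7 rose and 9 fell in B10, and 7 and 11 in NOD. Ptger4 (1.84 and 1.73) and Gpr183 (1.81 and 1.88), receptors for prostaglandin E2 and for oxysterols, rose. S1pr4 (-3.09 and -2.78) and Cxcr4 (-1.09 and -1.48), receptors for sphingosine phosphate and for CXCL12, fell. Others in the list changed more. S1pr1 had means of 11.80 and 7.71 at B10 T0 and T1, and 11.83 and 7.54 in NOD. The chemokine receptor Ccr8 was higher at T1, with means of 8.58 and 10.98 in B10, and 7.94 and 10.35 in NOD. All these values share the T0 arrays with those of the members.

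Of 13 other modulators of G proteins, 0 rose and 5 fell in each strain (0 rose at an unadjusted p under 0.05 in either). Over all genes 13.7% rose and 18.1% fell in B10, and 16.1% and 19.5% in NOD. Falls were more frequent among brighter genes. Of 9969 genes at or above the median level, 2490 rose and 3441 fell in B10, and 2366 and 3673 in NOD.

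**Figure D5:**
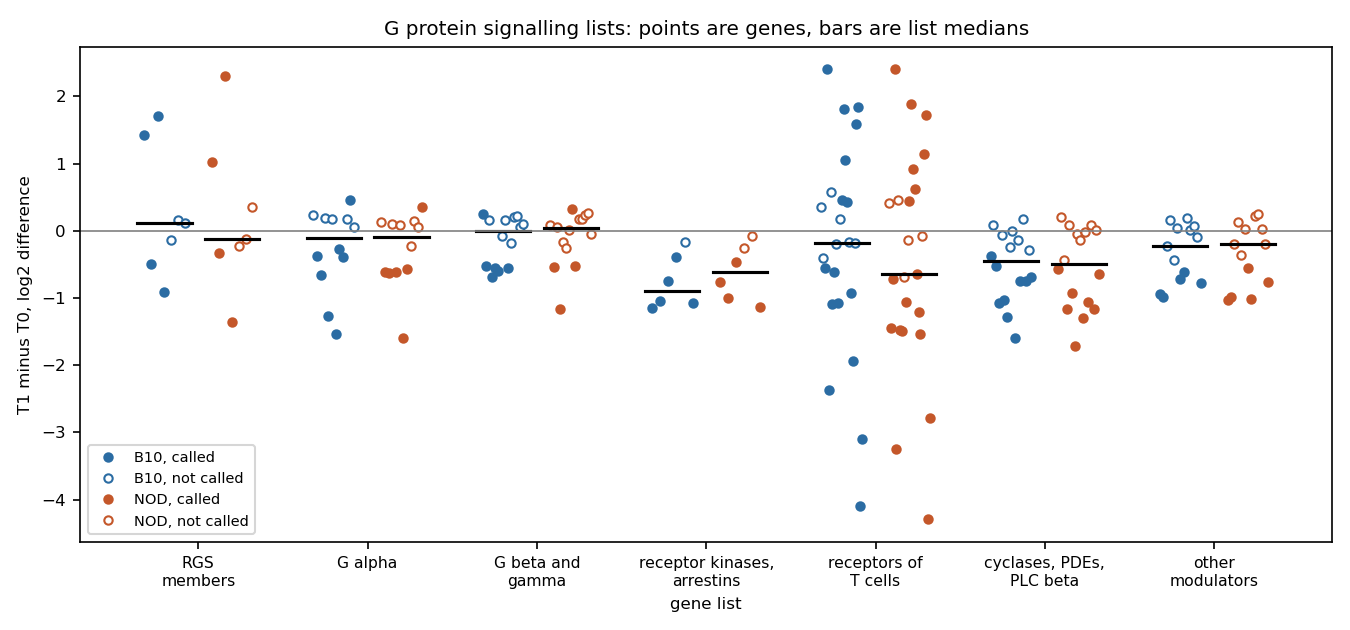
Change on stimulation (T1 minus T0, log2 difference, vertical axis) of the genes in 7 G protein signalling lists (horizontal axis) in B10 (blue) and NOD (orange). Points are genes, filled where the adjusted p is under 0.05, and black bars are list medians. Receptor kinases and arrestins have medians of -0.90 in B10 and -0.62 in NOD, and the receptors spread to both sides.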

How the data were processed

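Spleen cells sorted for CD4 were measured on 10 arrays. The authors deposited log2 intensities per probe set. The submitters' processing notes name RMA and Affymetrix Power Tools; a version and a genome build are not given in the sources used here. That the log is to base 2 was taken from the range of values. RMA brings all arrays to one distribution, so changes are relative to the other genes. Detection calls were not used. Of 35486 probe sets, 21789 name 1 gene, and the one with the highest mean stood for each of 19938 genes. limma 3.58.1 in R 4.3.3 fitted 4 group means to all 10 arrays (6 residual and 6.30 prior degrees of freedom, eBayes), with 5 contrasts, two-sided tests and Benjamini-Hochberg adjustment over all genes. Errors are limma's standard errors. In simulated data, 92% of genes given a log2 change of 1 passed in the B10 stimulation contrast and 56% in the interaction, and of those given 0.5, 33% and 4%. Only 200 genes were changed per simulation, and the noise was independent between arrays. The real B10 stimulation contrast called 6342 genes, so these shares need not hold for the real data. Replicate numbers are shared by states. Deviations of same-numbered T0 and T1 arrays correlated at 0.413 and 0.404 in B10, and at -0.014 and 0.219 in NOD. The main fit used no block, so it left out a pairing that B10 may have. With a fixed replicate block the adjusted p of the Rgs16 rise in B10 went from 0.000955 to 6.58e-06 (limma). The rise itself became smaller with that block, from 1.71 to 1.54 in B10 and from 2.30 to 2.17 in NOD. The Rgs14 call in NOD ended with that block. Summed marker levels are log2 of summed linear intensities. All RGS genes, and pathway genes past set sizes, could be named. The members and lists were chosen with earlier results of these data known, and the neighbours, motifs and olfactory guide after the values were seen. The number of arrays limits the precision.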

Additional observations from a re-analysis of the deposited data

Results flagged for a closer look

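The response of Rgs13 differed between the strains: NOD response minus B10 response was -1.07 on the log2 scale, and the test of this difference itself passed (limma, adjusted p = 0.0211). The call held in 2 of 10 omissions of an array and in 5 of 7 other alternatives, and the T0 levels lie near background. The groups have 2 or 3 arrays, too few for single arrays to be tested as outliers.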

How the results depend on the processing

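Rgs1, Rgs16 and Rgs18 kept their stimulation calls in both strains under each alternative that could be run, omission of each array included. The stimulation counts of members, 4 in each strain, ranged over omissions from 3 to 4 in B10 and from 3 to 5 in NOD, and those of all genes from 5376 to 6596 and from 5915 to 7071. At T0 the 1 member called (Rgs18) became 0 with every probe set tested or with only the brighter genes, where Rgs18 was not tested, and the count was 0 to 1 over omissions. At T1 the 1 member called (Rgs2) became 0 with the 75th percentile scaling, every probe set, array weights, only the arrays compared or a fixed replicate block, and the count was 0 to 1 over omissions. Without B10 T0 replicate 2 the 1 member called in each of these contrasts was Rgs16, higher in NOD, in place of Rgs18 and Rgs2. In the interaction, 0 members were called in each alternative. Counts over all genes were 1155 at T0 (571 to 1306 over omissions, 2316 with array weights), 718 at T1 (184 to 889, 292 with array weights, 128 with only the arrays compared) and 49 in the interaction (13 to 69, 31 with the 75th percentile scaling, 31 with array weights, 102 with trend and robust settings, 90 with the fixed replicate block). With the 75th percentile scaling, 5393 genes were higher and 3145 lower in NOD on stimulation, against 3201 and 3884; at T1 the split was 397 and 269 against 353 and 365, and in the interaction 16 and 15 against 19 and 30. The fixed block also ended the Rgs14 call in NOD; the random replicate block (correlation 0.083) changed no member's call. Causes were not tested.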

Other observations

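Among the pathway genes read beside the members, Gnb4, a G protein beta subunit, was higher in NOD than in B10 at T0 (0.79 on the log2 scale, adjusted p = 0.00287, limma). Pde3b, a phosphodiesterase that degrades cAMP, was lower in NOD at T1 (-0.86, adjusted p = 0.0230, limma). Over all genes, the calls of that contrast fell from 718 to 128 in a fit of only the T1 arrays. These genes are not the only pathway genes that differed. Arhgef12, from the list of other modulators, had means of 7.22 in B10 and 8.24 in NOD at T0, and 7.0 and 8.05 at T1.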
